A study of Mus musculus with 6 samples.

Results

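The enteric nervous system is the network of neurons and glia that lies in the wall of the gut. Its cells derive from neural crest that migrates into the gut before birth, guided by the growth factor GDNF through the receptor RET and its co-receptor GFRA1. The neurons sit in a plexus between the muscle layers and another beneath the mucosa, where cholinergic neurons drive contraction and secretion and neurons that make nitric oxide or VIP relax the muscle. A set of 28 genes that mark these cells was described, of 24452 gene rows in each library. The members were taken by symbol from a list of neuronal structure, synapse, transmitter and lineage genes with glial genes, and all 28 were found.

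The data were RNA-seq profiles of polyA RNA from small intestine of C57BL/6 mice at postnatal day 14, with 3 libraries labelled wild type and 3 labelled Erk1/2 -/-, which lack both ERK kinases by their label. The labels name no Cre driver, no allele, no sex and no segment of the intestine, so whether neurons and glia carried the deletion is not known from them. They do not say that the replicates were separate animals, and all p-values rest on the spread of these 6 libraries, which may be technical in part. The sex-linked genes Ddx3y and Xist, given below, differed between libraries of each genotype. The libraries of a genotype thus did not all come from the same animal. Each value is a normalised count, the reads of a gene over a factor for the library. Where 3 values are listed per genotype they follow replicates 1 to 3, wild type first.

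The genotype labels were not borne out by Mapk3. Mapk3, encoding ERK1, was at 3142, 2788 and 2004 in wild type libraries and at 3363, 2280 and 2734 in those labelled knockout. It did not differ past the threshold (limma adjusted p = 0.819). These are totals over the gene and hold no values for single exons, so every direction below is that of the libraries labelled knockout. The values per library summed to between 13641468 and 17153570. Gut epithelium was plain in all 6, with Vil1, the brush border villin, between 16362 and 25060. The libraries differed in ways the labels do not give. Onecut2, a transcription factor of the upper intestine, was at 200 in wild type 3 and 75 in labelled knockout 1 and between 1835 and 2560 in the others. Of 6 upper intestine genes listed, labelled knockout 1 was the lowest library for 3, where it was for 28.4% of all genes. Lct, another of the 6, was at 47541, 49910 and 46808 and then at 28904, 21657 and 13898, so it did not split the libraries in this way. Ddx3y, on the Y chromosome, was at 303 and 428 in wild type 1 and 2, 177 in labelled knockout 1 and 0 in the other libraries. Xist, on the X chromosome, was at 19, 19 and 6551 and then at 2, 5924 and 4596. Labelled knockout 1 also had long transcripts low and short ones high beside the other libraries, as described with the members' lengths.

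The gene for the vesicular acetylcholine transporter was the member that differed between the genotypes beyond the test's threshold. Slc18a3 rose about 2.09-fold in the libraries labelled knockout, and no other member passed. Of the 27 members tested, 1 was called higher at a limma adjusted p under 0.05, a share of 3.7%, where 4.85% of all 14686 genes tested were called higher. No member was called lower, 0 of 27, where 3.94% of all genes were. In either direction 8.79% of all genes were called. At an unadjusted p under 0.05, which 30.3% of all genes reached, there were 5 of the 27 members, Slc18a3 and Foxd3 with positive differences and Sox10, Stmn2 and S100b with negative ones. Negative differences were found in 15 of the 27 and in 50.9% of all genes. The median log2 fold change of the 27 was -0.12, beside -0.013 over all genes. RNA was taken from whole tissue, so fewer cells of a type and less RNA per cell cannot be told apart.

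Slc18a3 and Chat share a locus, and their upstream sequences are shown with that of Foxd3, the other member whose genotypes were apart in the same direction. Slc18a3 lies on chromosome 14 from 32462438 to 32464850 on the minus strand (GRCm38), inside the span of Chat, from 32408203 to 32465989 on the same strand, with no exon shared in the GENCODE vM21 basic annotation. Foxd3 lies on chromosome 4 from 99656299 to 99658622 on the plus strand. The 250 bases before each start are given 5′ to 3′ from RefSeq (GRCm38.p6), with the starts as RefSeq places them, at chr14:32464851-32465100 (minus strand) for Slc18a3, chr14:32465910-32466159 (minus strand) for Chat and chr4:99656049-99656298 (plus strand) for Foxd3. The RefSeq start of Chat lies inside its GENCODE span, so part of its window lies within that span. Capitals mark matches to the motifs searched.
Slc18a3: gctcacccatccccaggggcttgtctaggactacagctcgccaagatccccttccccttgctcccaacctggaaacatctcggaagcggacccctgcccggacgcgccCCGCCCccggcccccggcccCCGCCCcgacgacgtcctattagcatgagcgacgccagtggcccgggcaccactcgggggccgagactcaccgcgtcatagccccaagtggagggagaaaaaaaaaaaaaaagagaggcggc
Chat: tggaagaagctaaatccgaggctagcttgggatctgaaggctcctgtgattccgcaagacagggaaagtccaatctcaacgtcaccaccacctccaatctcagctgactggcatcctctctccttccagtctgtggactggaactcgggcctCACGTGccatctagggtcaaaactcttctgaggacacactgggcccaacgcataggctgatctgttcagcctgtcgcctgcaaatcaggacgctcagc
Foxd3: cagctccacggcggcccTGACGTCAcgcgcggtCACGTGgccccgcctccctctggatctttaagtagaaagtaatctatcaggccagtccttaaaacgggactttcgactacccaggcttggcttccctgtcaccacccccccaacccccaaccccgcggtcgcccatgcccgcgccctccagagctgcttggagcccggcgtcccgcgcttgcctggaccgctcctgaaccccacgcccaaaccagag
Motifs were searched on both strands in such windows of the 21 members that the promoter table held and of all 32851 windows in it. A member was counted if any of its windows held the motif. The share over all is per single window, so the member counts can run higher. The GC box GGGCGG was in 10 of the 21 and in 32.7% of all windows. It was present at 142 and 122 bases before the start of Slc18a3. The cAMP response element TGACGTCA was in Foxd3, Cartpt and Th, 3 of the 21, and in 1.55% of all windows. The E-box CACGTG was in Foxd3, Chat and Tac1 and in 6.02% of all windows. The ETS site CCGGAA, the core that ETS factors downstream of ERK bind, was in 2 of the 21, Gfra1 and Erbb4, and in 12% of all windows. The SOX site ACAAAG was in Stmn3 and Syt1 and in 16.5% of all windows. A match in these windows is a description of letters and was not tied to the expression values. The window of Slc18a3 was 66.0% G and C with 21 CpG dinucleotides, that of Foxd3 65.6% with 21, and that of Chat 54.8% with 8, where the median window had 52.4% G and C.

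Among the transmitter genes, Slc18a3 was called and the other 6 were not. SLC18A3 packs acetylcholine into synaptic vesicles. For Slc18a3 the wild type libraries gave 34, 32 and 39 normalised counts and the libraries labelled knockout gave 92, 60 and 73. Every library labelled knockout was above every wild type library. Their means were 35 ± 3.61 and 75 ± 16.1 (SD, n = 3 per genotype). On the log2 scale Slc18a3 was higher by 1.06 ± 0.23 (SE; limma adjusted p = 0.0395). All fold changes are on the scale of log2(normalised count + 1), which understates the change of low genes. The call is close to the threshold: it was lost when any 1 library besides labelled knockout 1 was left out, at limma adjusted p-values of 0.132, 0.179 and 0.0803 without wild type 1, 2 and 3 and of 0.0503 and 0.127 without labelled knockout 2 and 3. Without wild type 1, 2 and 3 the log2 fold change was 1.04, 1.00 and 1.14. Those fits called 71, 56 and 269 of all genes higher, where 712 were with all libraries. The call of Slc18a3 was also lost with sex as a covariate (0.0675), set by whether Ddx3y was above Xist. That fit called 281 of all genes higher. In the libraries with Ddx3y the values were 34 and 32 in wild type and 92 in labelled knockout 1, and in those without it 39 in wild type and 60 and 73 in labelled knockout. Chat, the enzyme that makes acetylcholine, was far lower in level and had 14, 10 and 6 and then 15, 13 and 15. Its log2 fold change of 0.54 ± 0.37 did not pass (limma adjusted p = 0.357), and the genotypes overlapped. Tuft cells of the epithelium also transcribe Chat, so its reads need not all be neuronal.

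The other transmitter genes did not pass. Vip, encoding the relaxant and secretagogue peptide VIP, was at 127, 119 and 126 and then at 101, 227 and 172. The wild type libraries were within 8 of each other, and the labelled knockout libraries lay on both sides of them. The log2 fold change was 0.35 ± 0.29 (limma adjusted p = 0.453). Without labelled knockout 1 it was 0.67 and passed (limma adjusted p = 0.0371), in a fit that called 10.6% of all genes higher. Nos1, the neuronal nitric oxide synthase, was at 115, 92 and 126 and then at 34, 124 and 119. Labelled knockout 1 was below the rest, and the other values of both genotypes overlapped. Its log2 fold change was -0.46 ± 0.49, and 0.14 without labelled knockout 1. Tac1, the precursor of substance P, ranged from 48 to 74 in wild type and from 64 to 73 in the labelled knockout libraries. Cartpt, a peptide precursor of enteric neurons, ranged from 38 to 58 and from 51 to 55. The 95% confidence intervals of their log2 fold changes were -0.33 to 0.70 and -0.35 to 0.69. Th, the enzyme of catecholamine synthesis, was at 9, 13 and 10 and then at 10, 5 and 6, with overlap.

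**Figure D1:**
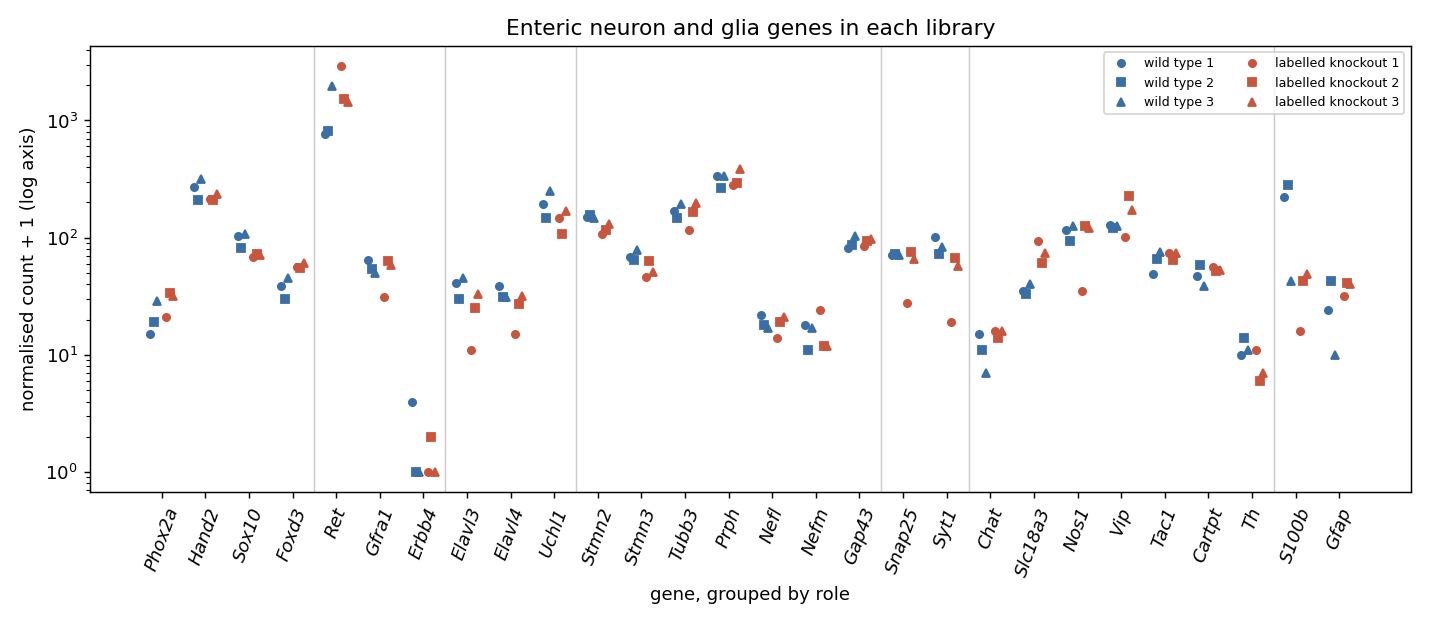
Normalised count + 1 of each of the 28 genes (log axis) in the 3 wild type (blue) and 3 labelled knockout (red) libraries, 1 point per library, with vertical lines between roles. Slc18a3 has its genotypes apart, Ret is the highest in every library, and labelled knockout 1 (red circles) lies below the others for Syt1, Snap25 and Nos1.

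Of the lineage transcription factors, Foxd3 was higher and Sox10 lower in every library labelled knockout, and neither passed the test. FOXD3 keeps neural crest cells in a progenitor state. Foxd3 was at 38, 29 and 44 and then at 55, 54 and 60, with no overlap. The log2 fold change was 0.61 ± 0.23 (limma adjusted p = 0.125). SOX10 maintains enteric progenitors and glia. Sox10 had 103, 81 and 106 and then 67, 71 and 70, again with no overlap and in the opposite direction. Its log2 fold change was -0.46 ± 0.18 (limma adjusted p = 0.141). Of the 27 members, 2 had every library labelled knockout above every wild type library, Slc18a3 and Foxd3, and 4 had every one below, Sox10, Stmn2, Stmn3 and Syt1. Those are shares of 7.41% and 14.8%, where 19.8% and 17.8% of all genes tested were apart upward and downward. Hand2, needed for enteric neurons to differentiate and also transcribed in gut mesenchyme, had the highest level of these factors, at 268, 208 and 318 and then 214, 210 and 237. The genotypes overlapped (log2 fold change -0.24 ± 0.19, limma adjusted p = 0.414). Phox2a, a factor of autonomic neurons, was at 14, 18 and 28 and then at 20, 33 and 31, with a log2 fold change of 0.49 ± 0.35 that did not pass (limma adjusted p = 0.376).

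Ret was the most abundant member and the one whose spread within genotypes was widest in normalised counts. RET is the receptor tyrosine kinase that GDNF activates in enteric progenitors. The libraries held 771, 812 and 1975 normalised counts of Ret in wild type and 2903, 1538 and 1428 in those labelled knockout. The highest values of each genotype were those of wild type 3 and labelled knockout 1, so the genotypes overlapped. Labelled knockout 1 was the lowest library for 13 of the 27 members and for 28.4% of all genes, so Ret did not follow those members. Which cells the Ret reads came from was not tested. The log2 fold change was 0.79 ± 0.43 (limma adjusted p = 0.258). Without labelled knockout 1 alone it was 0.46 (limma adjusted p = 0.431), and without wild type 3 alone 1.23 (0.101). Without both of those libraries it was 0.90 and passed (limma adjusted p = 0.00346), with 2 libraries a genotype and 14.3% of all genes called higher. The summed level of 6 ileal genes was high in the same libraries, at 170% of the wild type mean in wild type 3 and 227% in labelled knockout 1, and between 55.8% and 66.3% in the others. Most of that sum was Slc51a, at 5310 and 7367 in these libraries, and Slc51b was also highest there. Fabp6 was at 4 in wild type 3 and 1947 in labelled knockout 1, and Fgf15 at 1975 and 390. Slc10a2 and Mbl2, at 1 and 4 in wild type 3, were below the other wild type libraries. In labelled knockout 1 they were at 12 and 17, above the other labelled knockout libraries. The part of these genes in the Ret values was not tested. Gfra1, the co-receptor through which GDNF reaches RET, was far lower, at 64, 53 and 49 and then 30, 62 and 58. Its log2 fold change was -0.20 ± 0.31, and 0.12 without labelled knockout 1. Erbb4, a neuregulin receptor, was at 3 in wild type 1, at 1 in labelled knockout 2 and at 0 in the other 4 libraries, and it was not tested.

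The proteins that identify neurons all had negative differences, none past the threshold. Elavl3 and Elavl4, neuronal RNA-binding proteins, had log2 fold changes of -0.87 ± 0.44 and -0.51 ± 0.34 (limma adjusted p of 0.226 and 0.344). Elavl3 was at 40, 29 and 44 and then at 10, 24 and 32. Elavl4 had 38, 30 and 30 and then 14, 26 and 31. In both genes labelled knockout 1 was the lowest library and the genotypes overlapped. Without that library the log2 fold changes were -0.41 for Elavl3 and -0.19 for Elavl4. Uchl1, encoding the neuronal ubiquitin hydrolase PGP9.5, was at 191, 145 and 247 and then at 145, 107 and 167, with overlap (log2 fold change -0.46 ± 0.26, limma adjusted p = 0.265). Uchl1 and the synaptic genes below are transcribed in enteroendocrine cells too. The summed level of 19 enteroendocrine genes was 114%, 107% and 79.1% of the wild type mean and then 117%, 62.8% and 72.8%. None of the 19 passed the test, 6 had positive and 13 negative differences, and none was at 0 in any library. Their part was not tested.

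The synaptic genes had the lowest values in labelled knockout 1. Syt1 encodes the calcium sensor of vesicle release. It was at 101, 71 and 82 and then at 18, 66 and 56. The genotypes did not overlap, and labelled knockout 1 was far below the other libraries. The log2 fold change was -1.02 ± 0.48 (limma adjusted p = 0.198), and -0.46 without labelled knockout 1. Snap25, a membrane protein of the fusion complex, was at 70, 71 and 70 in wild type and at 27, 74 and 65. Its wild type values were almost equal, and of the labelled knockout libraries only the first was well below them (log2 fold change -0.46 ± 0.38, limma adjusted p = 0.437). Without that library the difference was -0.020.

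None of the cytoskeleton and growth cone genes passed the test. The log2 fold changes of the 7 ran from -0.41 to 0.030. Stmn2 and Stmn3, stathmins that regulate microtubules in axons, were lower in every library labelled knockout. Stmn2 had 150, 156 and 147 and then 106, 116 and 130, and differed by -0.37 ± 0.15 in log2 terms (limma adjusted p = 0.164). Stmn3 had 67, 63 and 78 and then 45, 62 and 50, apart by a single normalised count, with -0.41 ± 0.21 (limma adjusted p = 0.232). Prph, the intermediate filament of peripheral neurons, was the most abundant of this group, at 337, 267 and 332 and then 282, 293 and 385. The genotypes overlapped, and the 95% confidence interval of its log2 fold change was -0.40 to 0.46. Tubb3, the neuronal beta tubulin, was at 169, 146 and 193 and then at 115, 165 and 197, with an interval of -0.67 to 0.44. Gap43, a growth cone protein, ranged from 80 to 103 over all 6 libraries, with an interval of -0.39 to 0.45. The neurofilament genes Nefl and Nefm ranged from 13 to 21 and from 10 to 23. Nefl lies inside the span of Nefm on the other strand and shares exonic bases with it, and without a stated strand setting reads there cannot be told apart. The same holds where exons of Phox2a, Hand2, Gfra1, Elavl3, Uchl1, Nos1 and Foxd3 overlap those of another gene.

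**Figure D2:**
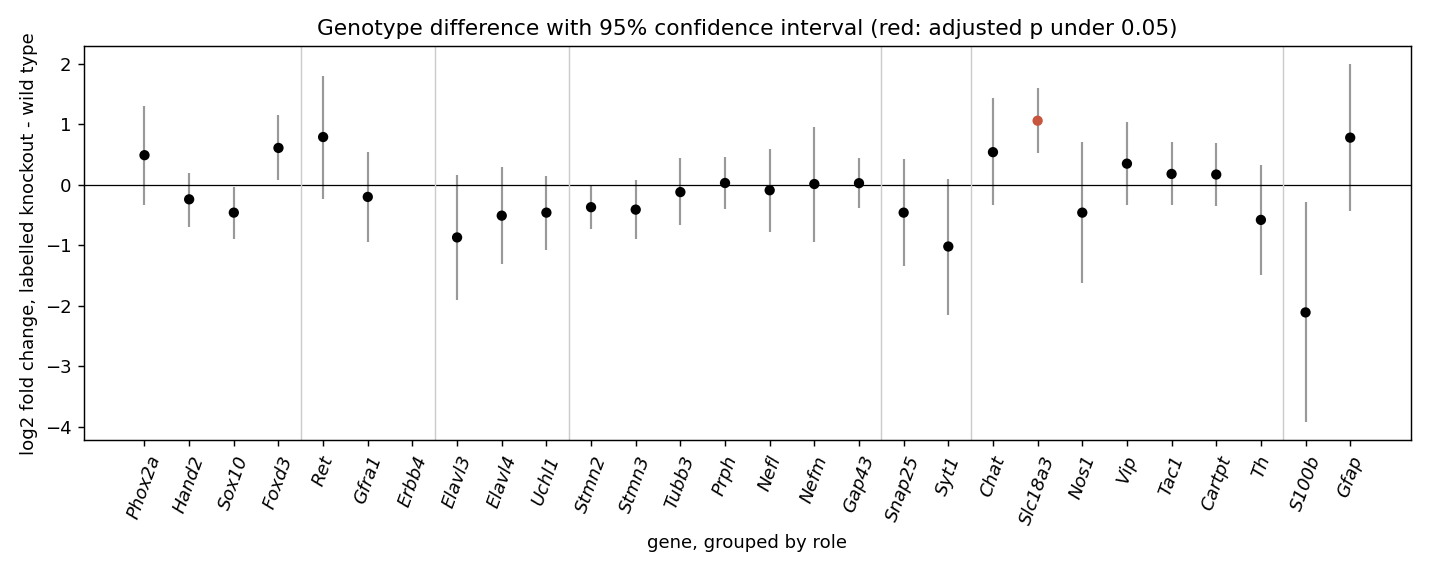
Log2 fold change (labelled knockout minus wild type) of the 27 genes tested, with 95% confidence intervals from limma, in the order of their roles; a gene past an adjusted p of 0.05 is red. Slc18a3 at 1.06 is the only red point, and S100b at -2.11 has the widest interval, from -3.93 to -0.29.

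The glial genes had differences of opposite sign, neither past the threshold. S100b encodes a calcium-binding protein of enteric glia. It was at 223, 280 and 42 and then at 15, 42 and 48. Only wild type 1 and 2 were high, and wild type 3 lay within the labelled knockout values. The log2 fold change was -2.11 ± 0.77 (limma adjusted p = 0.122). Without wild type 3 it was -2.96 and passed (limma adjusted p = 0.0472), in a fit that called 0.814% of all genes lower and 1.86% higher. It also passed without wild type 3 and labelled knockout 1 together, at -2.45 (limma adjusted p = 0.000947, with 12.1% of all genes called lower). Gfap, the glial filament protein, was at 23, 42 and 9 and then at 31, 40 and 39, with wild type 3 the lowest and overlap between the genotypes (log2 fold change 0.78 ± 0.52, limma adjusted p = 0.342).

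Per exonic length the members spanned a wide range of levels. In the wild type libraries the mean level per kilobase was 175 normalised counts for Ret, 167 for Prph and 165 for Uchl1. The ranges over the 3 libraries, 114 to 292, 143 to 181 and 123 to 210, overlapped, so these leading levels are not ordered beyond their spread. S100b, with a mean of 122, ranged from 28.3 to 189 and so has no settled place in the order. By their means Hand2 (113) followed, then Tubb3 (90.6), Vip (81), Stmn2 (72.8), Gap43 (62.9), Stmn3 (61) and Tac1 (50.7). At the low end were Th (4.51), Chat (3.5), Nefm (2.48) and Erbb4 (0.0827). Slc18a3 (14.5) was above Chat in every wild type library, with a range of 13.3 to 16.2 against 2.1 to 4.9. The spread within the wild type libraries, as the coefficient of variation of the normalised counts, was 0.821% for Snap25, 3.03% for Stmn2 and 3.52% for Vip, and 57.6% for Ret, 67.1% for Gfap and 68.4% for S100b. In the libraries labelled knockout Snap25 had 45.1%, Syt1 54.3% and Nos1 54.8%, each with its low value in labelled knockout 1.

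Labelled knockout 1 stood apart from the other libraries for these genes. It was the lowest of the 6 libraries for 13 of the 27 members, 48.1%, where it was the lowest for 28.4% of all genes tested. It was also the library with the strongest relation between transcript length and level. Across 14165 genes with a length, the deviation from a gene's 6-library mean had a Spearman correlation with exonic length of -0.56 in labelled knockout 1 and between -0.039 and 0.32 in the others. These are correlations across genes that share a library. In labelled knockout 1 the median log2 deviation was 0.41 for all genes of 1000 to 2000 exonic bases and -0.29 for those of 4000 to 8000. The members of the same lengths had medians of -0.17 (10 genes) and -0.75 (7 genes), so they were low beside other genes at both lengths. The longest member tested, Nos1, deviated by -1.44, beside a median of -0.69 for all genes over 8000 bases. With the length trend removed from each library, the median deviation of the members was -0.51 in labelled knockout 1 and between -0.028 and 0.22 in the other 5. Without labelled knockout 1 the median log2 fold change of the members was 0.090, compared with -0.12 with all libraries.

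**Figure D3:**
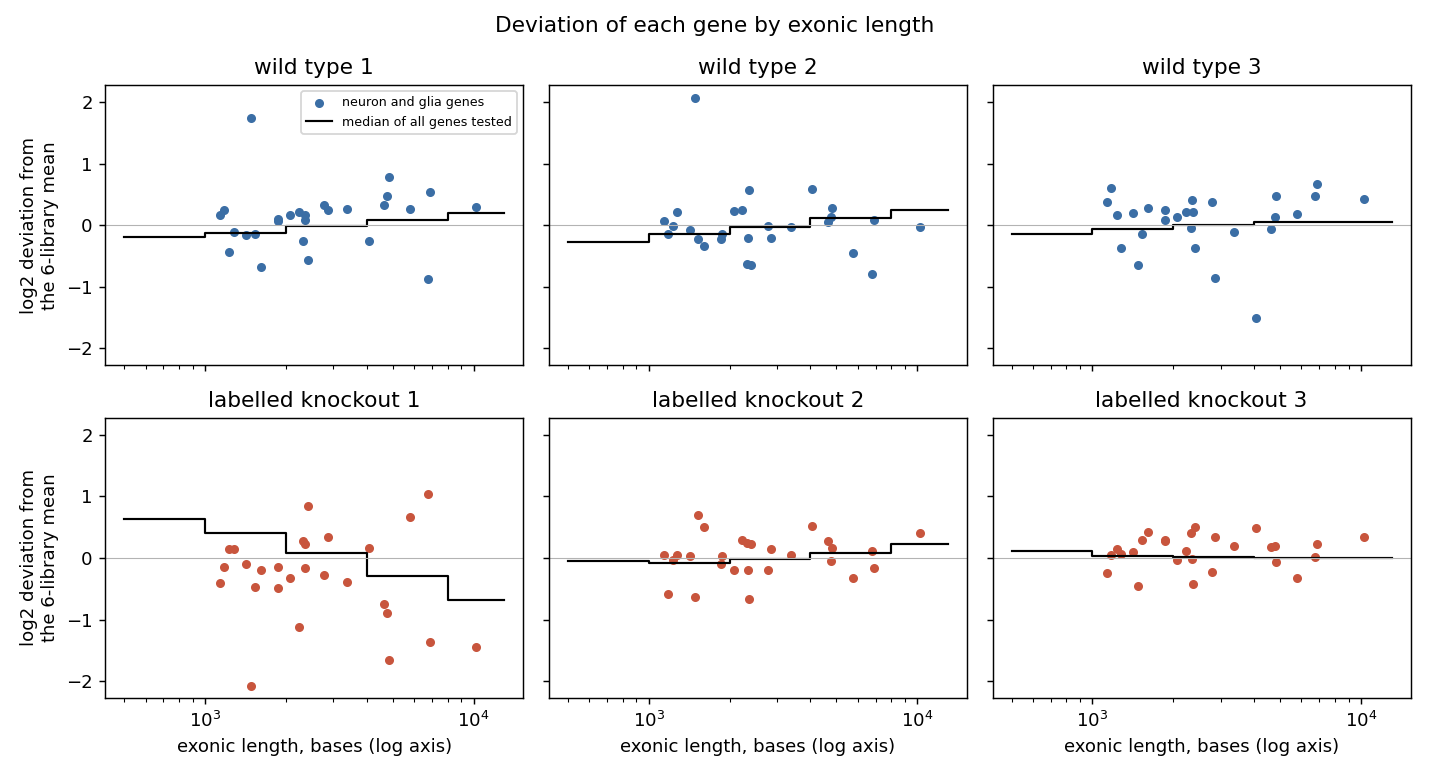
Log2 deviation of each of the 27 genes from its mean over 6 libraries (points) against exonic length in bases (log axis), one panel per library; the black steps are the medians of all genes tested in 5 length classes. The steps fall from 0.64 to -0.69 in labelled knockout 1, and most points of that panel lie below them.

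Smooth muscle, pacemaker and fibroblast genes had their lowest sums in labelled knockout 1. Smooth muscle, between whose layers much of the enteric plexus lies, was represented by 12 genes. Their summed level was 103%, 84.5% and 113% of the wild type mean and then 58.5%, 80.7% and 86.2%. None of the 12 passed the test, and 11 had negative differences. The 5 genes of interstitial cells of Cajal, the pacemakers that lie beside enteric neurons, summed to 107%, 96.3% and 97% and then to 53.4%, 75.6% and 68.8%, with the genotypes apart and none of the 5 past the threshold. All 28 members summed to 90.6%, 85.5% and 124% and then to 131%, 104% and 106%, with the genotypes overlapping. Labelled knockout 1 had the highest of these sums, and Ret made up 63.1% of it. Without Ret and S100b the member sums were 102%, 89.1% and 109% and then 78.4%, 96.6% and 105%, again with overlap. The fibroblast list had 122%, 86.8% and 90.7% and then 62.6%, 98.2% and 92.3%. Labelled knockout 1 was the lowest for 4 of its 7 genes, where it was for 28.4% of all genes. Most of that sum was the long Col1a1, Col1a2 and Col3a1 (5930, 5348 and 5564 exonic bases). The shorter genes of the list did not share a direction. Dcn (1939) was at 1081, 1012 and 1311 and then 1404, 1581 and 1388. Dpt (1724) was at 488, 414 and 687 and then 359, 401 and 347. Lum (2448) was at 291, 281 and 405 and then 378, 413 and 288. None of these sums was corrected for length. The 6 endothelial genes had 100%, 110% and 90% and then 63.5%, 60.8% and 55.7%. Of these, 3 were called lower, where 3.94% of all genes were. Epithelial genes went the other way, at 96.9%, 90.4% and 113% and then 181%, 166% and 173%. Of the 7, 2 were called higher, where 4.85% of all genes were. Without those 2, Krt8 and Krt19, the epithelial sums were 93.2%, 93.2% and 114% and then 134%, 131% and 133%. The part of these sums in the values of the neuron and glia genes was not tested.

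**Figure D4:**
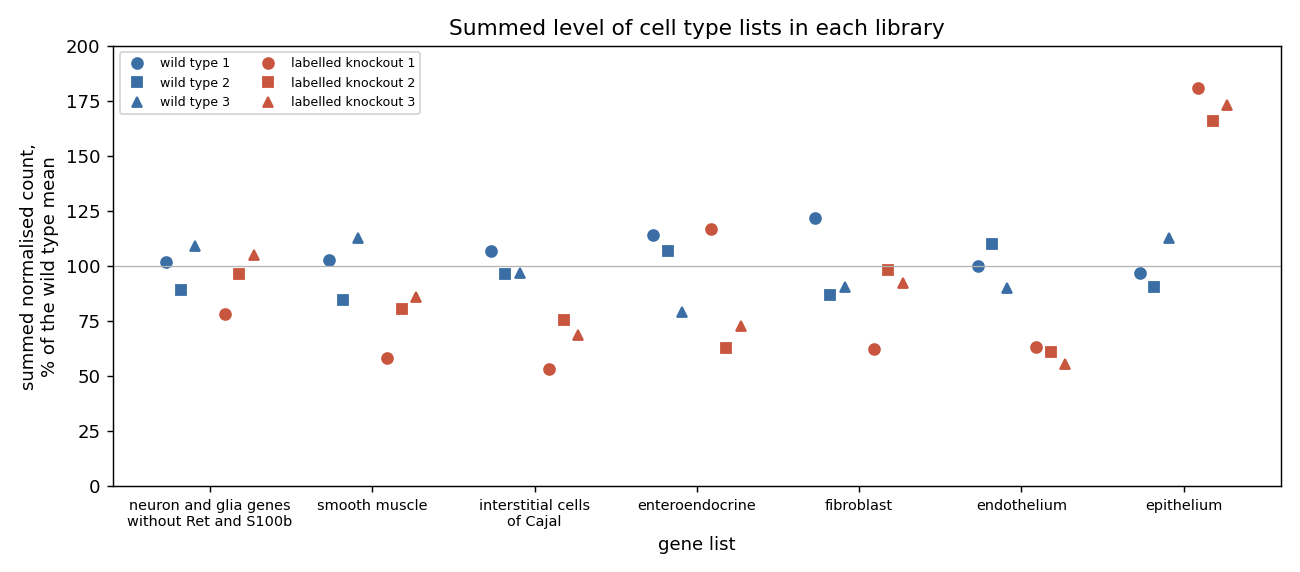
Summed normalised count of each gene list as a percentage of its wild type mean, 1 point per library (wild type blue, labelled knockout red). The neuron and glia genes, drawn without Ret and S100b, overlap between the genotypes. The epithelial genes lie at 166% or above in the libraries labelled knockout, and labelled knockout 1 is the lowest point for smooth muscle at 58.5%.

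Other genes of the enteric nervous system were counted from 5 lists made from textbook knowledge. In the GDNF, endothelin and lineage list 0 of 15 tested were called in either direction, with 3 at an unadjusted p under 0.05, and 10 had negative differences. The shares of all genes for these counts are those given above. They were 4.85% called higher, 3.94% called lower, 30.3% at an unadjusted p under 0.05 and 50.9% with negative differences. Labelled knockout 1 was the lowest library for 9 of the 15, where it was for 28.4% of all genes. Its most abundant members were Ece1, which activates endothelins, at 2875 ± 181 and 2451 ± 188 (SD, n = 3 each), and Tbx3, at 2761 ± 186 and 1891 ± 344, and limma adjusted p-values were 0.281 and 0.0811. In the synaptic vesicle and release list 0 of 26 were called, with 1 at an unadjusted p under 0.05, and 22 had negative differences around a median log2 fold change of -0.40. Labelled knockout 1 was the lowest library for 19 of the 26. Vamp2, the vesicle partner of SNAP25, was at 916.7 ± 68.1 and 810.3 ± 48.4 (SD, n = 3 each, limma adjusted p = 0.388). Bsn, a scaffold of the active zone, was at 518 ± 115 and 487.7 ± 55.5 (limma adjusted p = 0.825).

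The remaining lists each held a single called gene, shares of 6.25%, 4.17% and 5.56% of those tested. These are near the shares of all genes, 4.85% called higher and 3.94% called lower. Ache, encoding acetylcholinesterase, which ends cholinergic transmission, was 1 of 16 tested of the transmitter list. It was at 186, 157 and 190 and then at 398, 368 and 383. The genotypes were far apart, and the log2 fold change was 1.11 ± 0.14 (limma adjusted p = 0.0134). The call was lost without wild type 1 (0.0644), wild type 2 (0.0925) or labelled knockout 3 (0.071). Without wild type 1 and 2 the log2 fold change was 1.14 and 1.02. Those fits called 71 and 56 of all genes higher, where 712 were with all libraries. Calb2, the calcium-binding protein calretinin of many enteric neurons, was 1 of 24 in the neuronal cytoskeleton and adhesion list. It had 146, 119 and 106 and then 18, 38 and 34, and its log2 difference was -2.06 ± 0.31 (limma adjusted p = 0.0194). Every library labelled knockout was under the lowest wild type library by more than its own value. Its call was lost without wild type 1 (0.0843), wild type 2 (0.111) or labelled knockout 3 (0.0728). Without wild type 1 and 2 its log2 difference was -1.94 and -2.08. Those fits called 7 and 1 of all genes lower, where 579 were with all libraries. Of the 24, 18 had negative differences, and labelled knockout 1 was the lowest library for 15. Nrg1, a ligand that glial precursors need and that gut stroma also makes, was 1 of 18 in the glial list. It had 31, 25 and 27 and then 126, 179 and 168, and its log2 fold change of 2.46 ± 0.21 (limma adjusted p = 0.006) was lost as a call without labelled knockout 3 (0.0522). In that list 15 of 18 differences were negative, with a median of -0.24, and labelled knockout 1 was the lowest library for 6.

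**Figure D5:**
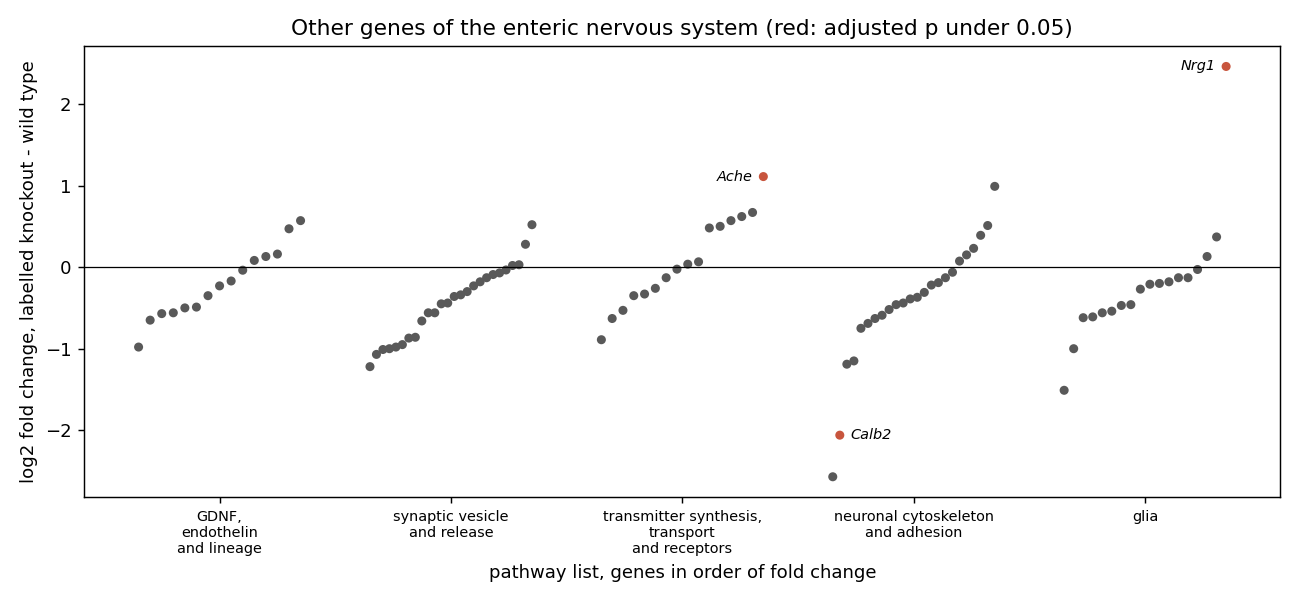
Log2 fold change (labelled knockout minus wild type) of each tested gene in 5 lists of other enteric nervous system genes, in order within a list; genes past an adjusted p of 0.05 are red and named. Ache at 1.11, Nrg1 at 2.46 and Calb2 at -2.06 are the called genes, and most genes of the synaptic list lie below 0.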

How the data were processed

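PolyA RNA-seq libraries of mouse small intestine were grouped by their titles. Tools named in the submitters' processing notes are DESeq2 (version not stated), HTSeq 0.6.0 and TopHat2 2.1.0, with mm10 as the build. No annotation, strand setting or handling of multiply mapped reads is given in the sources used here. The authors deposited a score per gene: whole numbers whose low values skip or double at regular steps, as rounded normalised counts would. Single reads were not recovered, so no counting intervals were computed, and values near 10 are imprecise.

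The authors' scaling was kept. On log2(normalised count + 1), limma 3.58.1 (R 4.3.3, intensity trend) tested the 14686 genes that reached 10 in 3 or more libraries, two-sided, with a Benjamini-Hochberg threshold of 0.05 over all of them. Script and fit were tested on simulated data. Exonic lengths and positions came from GENCODE vM21 by symbol, matching 95.6% of symbols. All members are named. Values in every library are given for called members, those leading a role by level and those the text singles out. Called genes of the other lists are named, or the 2 most abundant. The other members' values, Onecut2, Lct, Ddx3y, Xist, Vil1 and the named ileal and fibroblast genes were chosen for print after being seen. So were the epithelial sums without Krt8 and Krt19 and the member sums without Ret and S100b. Some genes are not reported here. Members and lists were chosen with earlier results of these data known. Alternatives changed scaling, pseudocount, filter, test, threshold, replicate block and libraries used. Sex as a covariate and removal of a length trend (lowess, span 0.3) were added after seeing the data. The labels give no sex, so it was set by whether Ddx3y was above Xist in a library.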

Additional observations from a re-analysis of the deposited data

How the results depend on the processing

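The call of Slc18a3 was kept under scaling, pseudocount, test and stricter-filter changes (log2 fold change 0.89 to 1.07, limma adjusted p 0.0335 to 0.0488), with the length trend removed (0.99, 0.0232) and without wild type 3 and labelled knockout 1 together (0.98, 0.0239). It was lost, leaving 0 members called higher, with a filter of at least 1 in at least 1 library (limma adjusted p = 0.0565), with sex as a covariate (0.0675) and with the replicate number as a block (0.112). The labels do not say whether same-numbered libraries were paired. Their deviations had correlations of -0.37, 0.30 and -0.16. These cannot decide it, since deviations from a mean of 3 libraries depend on each other. The block left 55 genes called higher and 9 lower of all tested, and Ache (0.0733) and Calb2 (0.0825) lost their calls under it. The cause of these losses was not tested.

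Leaving out 1 library in turn gave 0 to 2 members called higher and 0 to 1 lower, with S100b the gene called lower without wild type 3. It gave 26 to 1546 genes called higher and 1 to 1452 lower of all tested, the highest without labelled knockout 1, and a median of the members between -0.29 (without labelled knockout 3) and 0.090 (without labelled knockout 1). Without wild type 3 and labelled knockout 1 together, 3 members were called higher (Slc18a3, Ret, Vip) and 1 lower (S100b), with 2033 and 1729 of all genes. Calls of all genes were 414 higher and 983 lower with library totals as the scale, which set the median of all genes at -0.19 and that of the members at -0.27, 1517 and 1330 at an adjusted p under 0.1, and 281 and 178 with sex as a covariate.

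Prph, Nefm, Gap43, Nefl, Tubb3, Gfra1, Nos1, Tac1, Cartpt and, outside the members, Mapk3 changed sign under at least 1 alternative, none of them past the threshold. Under upper-quartile scaling Prph was at -0.025, Nefm at -0.039 and Gap43 at -0.028. With library totals Prph was at -0.14, Nefm at -0.15, Gap43 at -0.14 and Mapk3 at -0.089, and with trimmed means of M values Nefm was at -0.0024. With sex as a covariate Prph was at -0.036 and Gap43 at -0.052. With the length trend removed Prph was at -0.11, Gap43 at -0.19, Tac1 at -0.072, Cartpt at -0.074 and Mapk3 at -0.028. Over the fits that left out 1 library, or wild type 3 and labelled knockout 1 together, Prph ran from -0.11 to 0.16, Gap43 from -0.047 to 0.19, Nefm from -0.32 to 0.18, Nefl from -0.21 to 0.081 and Tubb3 from -0.29 to 0.20. Gfra1 ran from -0.39 to 0.12, Nos1 from -0.78 to 0.24, Cartpt from -0.0044 to 0.33 and Mapk3 from -0.25 to 0.22. Gfra1, Nefl, Tubb3 and Nos1 turned positive without labelled knockout 1, at 0.12, 0.081, 0.099 and 0.14, and Nefm turned negative.

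With 3 libraries a genotype, members near 10 normalised counts (Chat, Th, Nefm) rest on few reads.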
